A study of Homo sapiens with 12 samples.

Results

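The mitochondrial ribosomal protein genes were followed through SBC3 spheroids treated with teriflunomide, lurbinectedin or both. SBC3 is an established line of human small cell lung cancer, and spheroids are cell clusters grown in suspension. RNA was sequenced from 12 libraries in 4 groups of 3: untreated control, teriflunomide alone, lurbinectedin alone, and the 2 drugs in combination. All 4 groups are the same cell line, and the labels give no dose, no exposure time, no vehicle and no statement that the replicates were separate cultures, so p-values may measure only technical spread. Teriflunomide inhibits dihydroorotate dehydrogenase, the mitochondrial enzyme of pyrimidine synthesis, and lurbinectedin binds DNA and blocks transcription by RNA polymerase II. Genes were taken by symbol, MRPL or MRPS followed by a number with at most 1 letter (A, B or C) after it. This gave 78 genes of the 60649 in each table, 49 named MRPL and 29 named MRPS, and 77 of them passed the filter on low counts. Pseudogenes, antisense and divergent transcripts were left out.

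The mitochondrial ribosome is the machine inside mitochondria that translates the few proteins encoded by mitochondrial DNA, all of them parts of the respiratory chain and ATP synthase. Its proteins are encoded in the nucleus, made in the cytosol and imported, and they join ribosomal RNAs that come from the mitochondrial genome. It has a large subunit, which forms peptide bonds, and a small subunit, which decodes the messenger RNA. Many of its proteins descend from bacterial ribosomal proteins, and others are found only in mitochondria. By the structure-based naming, 51 of the 78 genes encode large-subunit proteins (MRPS30 and MRPS18A among them, despite their symbols) and 26 encode small-subunit proteins. MRPS36 is now known as KGD4, a subunit of the 2-oxoglutarate dehydrogenase complex, and belongs to neither. Of the ribosomal members, 48 have a bacterial counterpart and 29 are specific to mitochondria.

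The genes lie on 21 chromosomes. Their genomic span, exons and introns together, ran from 677 to 351418 bp with a median of 11940 bp. Exons of 41 of the 78 overlapped exons of another gene, 30 of them on the opposite strand, and whether counting used strand is not given in the sources used here. The 79 rows of mitochondrial ribosomal pseudogenes held 0.0466% as many counts as the genes themselves.

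Sequencing depth ran from 23206414 to 33222162 counts per library, a ratio of 1.43. Teriflunomide replicate 3 and combination replicate 2 stood apart from their groups: transcripts of the mitochondrial genome took 22.6% and 24.9% of their counts, against 8.42% and 8.43% in the other teriflunomide libraries and 14.6% and 13.1% in the other combination libraries. Of 11 neuroendocrine markers 6 passed the filter, with SYP at 16.8 CPM (counts scaled to library size) and NEUROD1 at 4.03 CPM in control, whereas INSM1, GRP and UCHL1 had 0 counts in every library. YAP1, which marks a non-neuroendocrine class of this cancer, stood at 246 CPM and KRT8 at 243 CPM, while EPCAM and CDH1 had 3 counts each. Of the fibroblast markers COL1A1 and COL1A2 were at 266 and 270 CPM in control, and DCN and LUM had 1 and 0 counts in all libraries. Leukocyte and endothelial markers were near 0, PTPRC with 10 counts and CD3E with 0. Of the 6 tested neuroendocrine markers 4 were higher with lurbinectedin, where 36% of all genes were, with SYP at a log2 fold change of 0.88. The 1 lower was NEUROD1 at -1.31, where 35.7% of all genes were lower. YAP1 (-1.92), COL1A1 (-1.32) and COL1A2 (-1.44) were lower and KRT8 (0.80) higher. The 1 tested leukocyte marker, CD14, rose from 0.110 to 1.86 CPM (4.07), and the 1 tested endothelial marker, PECAM1, fell from 0.364 to 0.0130 CPM (-4.37). Both passed the filter only through the groups where they were higher, as did the neuroendocrine marker CHGA, at 0.0633 CPM in control and 0.442 with lurbinectedin. The directions of these 3 genes were thus set by the filter and are not evidence. The 4 neuroendocrine markers counted as higher include CHGA, so that count is not to be read against the 36%. The part of these markers in the results on ribosomal genes was not tested.

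In control, the most abundant transcripts per length were MRPL37 at 67.3 ± 0.883 CPM per kilobase of exon (SD, n = 3), MRPL51 at 64.5 ± 1.21 and MRPL33 at 60 ± 1.08. Over the 78 genes the median per kilobase was 14.1 CPM in control and 13.1 under teriflunomide. Under lurbinectedin this median was 15.1 CPM, and in the combination group 12.1. MRPL58, which encodes a peptidyl-tRNA hydrolase built into the large subunit, lay near that median at 14.1 ± 0.343. Some genes were far below the rest. MRPL53 had 10 counts over all 12 libraries and was not tested. In MRPL53, 72.8% of the exon bases overlap CCDC142 on the same strand and 79.4% an uncharacterised gene on the opposite strand, which counting can drop, and whether it did was not tested. MRPS24, which encodes a small-subunit protein at the messenger RNA entry, reached 225 counts in all and MRPL38, part of the central protuberance of the large subunit, 1304 counts. MRPL46 reached 1149 counts. MRPS24 shares 23.2% of its exon bases with a read-through gene, and MRPL38 shares 41.1% with another gene on its strand.

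Summed over the 78 genes, the share of all counts was 0.427% ± 0.00954 in control (SD, n = 3) and 0.378% ± 0.0509 in the teriflunomide group. It was 0.395% ± 0.00881 in the lurbinectedin group and 0.344% ± 0.0298 in the combination group. Mitochondrial-genome transcripts fill more of the treated libraries, so the share was also taken of nuclear-gene counts alone. Control then had 0.458% ± 0.00826 and teriflunomide 0.434% ± 0.0194, lurbinectedin 0.469% ± 0.0109 and the combination 0.417% ± 0.00802. By this measure the 3 combination libraries, between 0.410% and 0.426%, lay below all 3 lurbinectedin libraries, which ran from 0.462% to 0.481%, and below all 3 controls, which ran from 0.450% to 0.467%. In bulk RNA, fewer cells and less RNA per cell cannot be told apart.

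With lurbinectedin the shift in the ratio between the subunits changed direction when the small-subunit gene MRPS27 was left out. Large-subunit genes held 1.94 ± 0.00513 times the counts of small-subunit genes in control (SD, n = 3), against 2.01 ± 0.0166 under lurbinectedin and 2.09 ± 0.0393 in the combination group. No control library, at 1.94 to 1.95, overlapped the lurbinectedin libraries at 1.998 to 2.03 or the combination libraries at 2.06 to 2.13. With teriflunomide alone the ratio was 2.02 ± 0.106, and replicate 3 alone stood at 2.14 while the others were at 1.95 and 1.96. MRPS27, which had the largest fall of the small-subunit genes with lurbinectedin, bore on these values. With its counts left out, a choice made after seeing the data, the ratio was 2.15 ± 0.0086 in control, 2.06 ± 0.0179 under lurbinectedin and 2.14 ± 0.0467 in the combination group. The lurbinectedin libraries, at 2.04 to 2.08, then lay below control, at 2.15 to 2.16, and the combination libraries, at 2.11 to 2.19, overlapped it. The ratio without other abundant genes was not taken. MRPL19, of the large subunit, fell from a mean of 351.5 CPM in control to 172.7 with lurbinectedin.

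**Figure D1:**
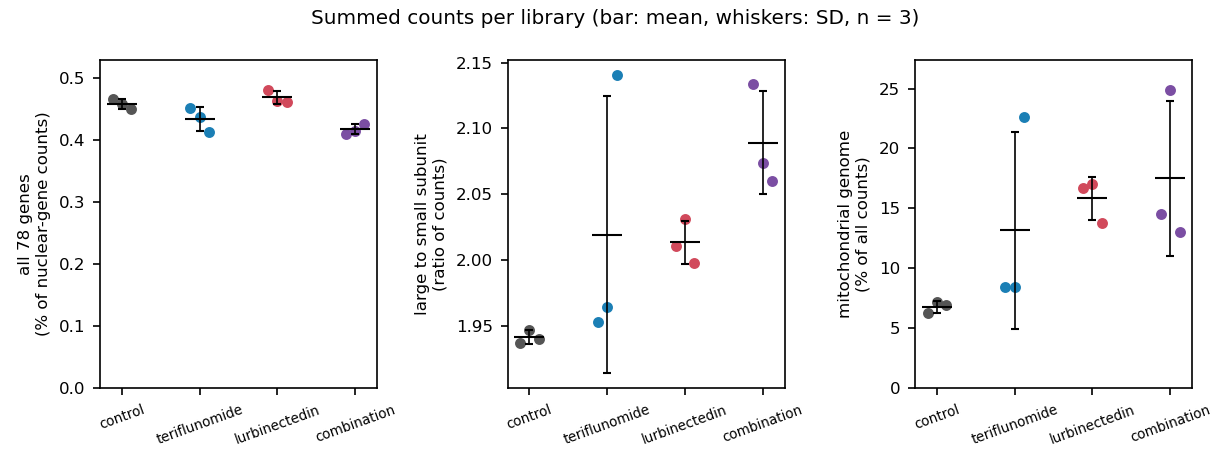
Summed counts per library (points), with the group mean (bar) and SD (whiskers, n = 3). Left, the 78 genes as a percent of nuclear-gene counts; middle, the ratio of large-subunit to small-subunit counts (the axis does not start at 0); right, the percent of all counts from the mitochondrial genome. The combination libraries lie below the control and lurbinectedin libraries on the left and, with MRPS27 counted, above them in the middle, and teriflunomide replicate 3 and combination replicate 2 stand out on the right.

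Lurbinectedin moved these genes in opposite directions. Against control, 35 of the 77 tested genes were higher and 20 lower, and 22 were not called, at an edgeR adjusted p under 0.05. Among all 16683 genes tested, 36% were higher and 35.7% lower, and the members' shares were 45.5% and 26%. The median log2 fold change of the 77 was 0.17, against 0.05 over all genes. Changes of 2-fold or more were fewer than in the background: 9 genes rose and 6 fell by at least that, where 20.1% and 24% of all genes did. With library size as the only scaling, which moved the all-gene median to -0.18, 20 genes rose and 24 fell, where 25.9% and 40.2% of all genes did, and the members' median was -0.06. By library, the median log2 difference from the control mean was 0.25, 0.13 and 0.19 with lurbinectedin and between -0.02 and 0.02 in control.

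Both subunits held genes of each direction. Of 50 tested large-subunit genes 24 rose and 10 fell with lurbinectedin, with a median log2 fold change of 0.26. Of 26 small-subunit genes 11 rose and 9 fell, with a median of 0.12. Members with a bacterial counterpart had 22 higher and 13 lower of 48, and mitochondria-specific members 13 higher and 6 lower of 28. No group of this kind moved in 1 direction.

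The steepest fall with lurbinectedin was that of MRPL48, a mitochondria-specific protein of the central protuberance of the large subunit. Its gene (ENSG00000175581.14, GRCh38 chr11:73787872-73865133, plus strand) was at 34.0, 33.5 and 31.1 CPM in control and 32.3, 33.5 and 31.1 with teriflunomide, but at 4.12, 4.22 and 4.25 once lurbinectedin was given. The combination libraries held 6.15, 4.09 and 4.37 CPM. The lurbinectedin and control libraries were far apart, and the teriflunomide libraries overlapped control. The level fell 7.82-fold with lurbinectedin (log2 fold change -2.97, SE 0.149, edgeR adjusted p = 8.5e-10).

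MRPS27, a small-subunit protein of the pentatricopeptide repeat family that binds RNA, was the next. It (ENSG00000113048.17, chr5:72219403-72320646, minus strand) stood at 131.5, 134.1 and 127.1 CPM in control and 28.8, 28.7 and 28.1 with lurbinectedin. With the combination it stood at 29.6, 21.4 and 28.4 CPM, so the lurbinectedin and combination libraries overlapped and both lay below control. The log2 fold change was -2.20 with lurbinectedin (SE 0.138, edgeR adjusted p = 6.6e-09). MRPS28 was also lower, from 11.1, 8.93 and 10.2 CPM in control to 2.28, 2.31 and 2.22 with lurbinectedin.

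MRPL1, the protein of the mobile stalk beside the tRNA exit site, fell as well. Its gene (ENSG00000169288.18, chr4:77862830-77952785, plus strand) went from 33.6, 34.6 and 30.9 CPM in control to 7.95, 9.73 and 8.87 with lurbinectedin, and the combination libraries had 8.98, 9.02 and 7.59. With teriflunomide alone it was at 38.9, 34.4 and 43.4 CPM, which overlapped control, so the low levels belonged to the libraries with lurbinectedin. The log2 fold change was -1.90 (SE 0.132, edgeR adjusted p = 1.69e-08). MRPS6, a small-subunit protein of bacterial descent, fell from 25.1, 26.5 and 27.7 CPM to 8.04, 10.7 and 9.12 (log2 fold change -1.51, SE 0.142, edgeR adjusted p = 3.8e-07). The other 15 genes called lower ranged from MRPL19, at -1.03, to MRPL35 and MRPS36, both at -0.30.

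Among the rises, MRPL49 combined a high level with a large change. This large-subunit gene (ENSG00000149792.9, chr11:65122183-65127371, plus strand) stood at 69.2, 66.3 and 68.1 CPM in control and at 259.7, 220.8 and 229.2 with lurbinectedin. The combination gave 169.3, 187.6 and 205.2 CPM, below every lurbinectedin library and above every control library. The level rose 3.48-fold with lurbinectedin (log2 fold change 1.80, SE 0.145, edgeR adjusted p = 7.53e-08). Of its exon bases 11.6% overlap SYVN1 on the opposite strand.

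MRPL32, a large-subunit protein that a protease of the inner membrane trims before it enters the ribosome, rose from 33.9, 34.1 and 35.1 CPM to 90.03, 85.9 and 83.3 (log2 fold change 1.33, SE 0.19, edgeR adjusted p = 2.39e-05). MRPS12, which sits at the decoding centre, rose from 23.4, 19.7 and 22.5 CPM to 65.6, 49.9 and 52.3 (log2 fold change 1.35, SE 0.311, edgeR adjusted p = 0.00138). In both genes every lurbinectedin library exceeded every control library. MRPL38 and MRPS24 rose too, by log2 fold changes of 1.82 (SE 0.235) and 1.73 (SE 0.33), but from the low levels named above: MRPL38 from 1.81, 1.54 and 2.001 CPM to 6.25, 6.68 and 6.07, and MRPS24 from 0.201, 0.501 and 0.418 CPM to 1.41, 1.25 and 1.13. Other called rises were MRPL27 at 1.27, MRPS2 at 1.25, MRPS11 at 1.21 and MRPL10 at 1.03.

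The 3 copies of the bacterial S18 protein differed in their values. With lurbinectedin MRPS18B rose, from 87.0, 88.8 and 86.2 CPM to 127.0, 108.4 and 119.4 (log2 fold change 0.44, SE 0.153, edgeR adjusted p = 0.0196). For MRPS18C the estimate was 0.29 (SE 0.148, edgeR adjusted p = 0.0964) and MRPS18A, the copy in the large subunit, 0.02 (SE 0.142, edgeR adjusted p = 0.883). Whether the copies differ from each other was not tested.

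**Figure D2:**
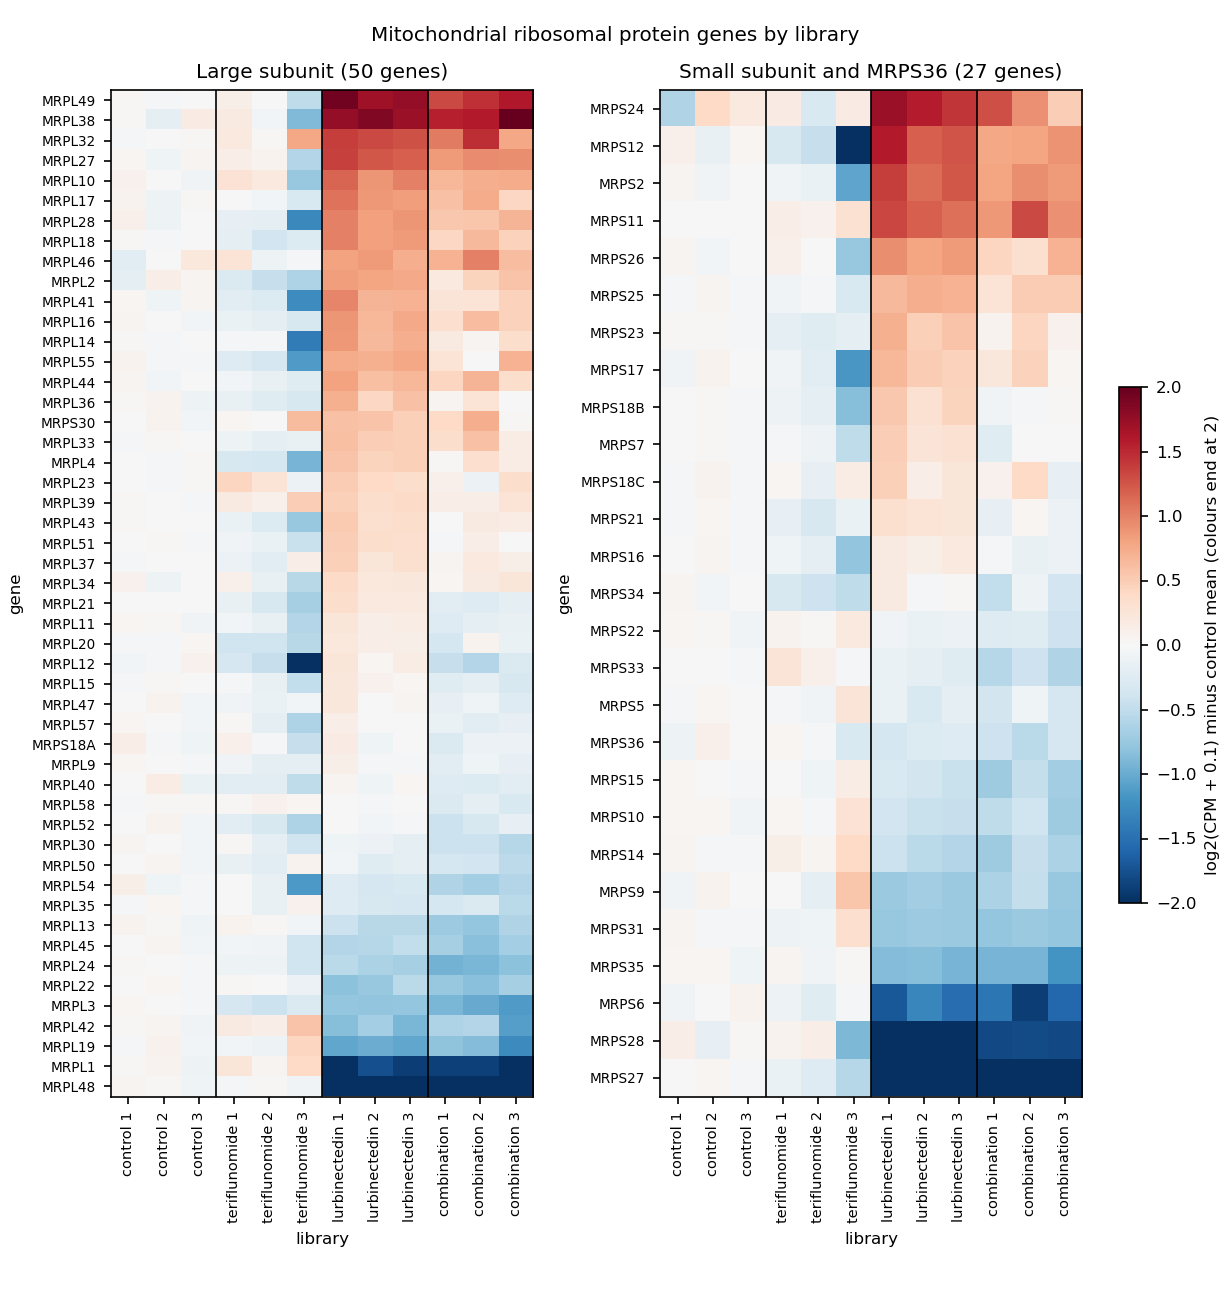
Level of each of the 77 tested genes in every library as log2(CPM + 0.1) minus the control mean, blue lower and red higher, with colours ending at 2. Rows are ordered by the mean of the lurbinectedin libraries, from MRPL49 down to MRPL48 on the left and from MRPS24 down to MRPS27 on the right; teriflunomide replicate 3 differs from the other teriflunomide libraries in many rows.

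Span and direction went together with lurbinectedin. Across the 77 genes the Spearman correlation of genomic span with log2 fold change was -0.55, near the -0.57 over all 16651 nuclear genes tested. The points are genes measured in the same libraries, so this is a description. Among the 26 shortest genes, of 677 to 5894 bp, 16 rose and 1 fell, with a median log2 fold change of 0.56. Of all genes in that range of span 51.6% rose and 13.5% fell, with a median of 0.66. Among the 26 longest, of 16583 to 351418 bp, 7 rose and 14 fell, with a median of -0.53, where 24.4% and 50.1% of all genes of such spans did, with a median of -0.40. The 25 genes between, of 6450 to 16365 bp, had 12 higher and 5 lower and a median of 0.28, against 57.5% and 12% of all genes in that range and a median of 0.62.

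MRPL48 spans 77262 bp, MRPL1 89956 bp and MRPS27 101244 bp, against 5189 bp for MRPL49. The longest genes by annotation do not follow the order: MRPS22, at 351418 bp, had a log2 fold change of -0.11. RefSeq places a start of MRPS22 just past chr3:139343955, near the end of the annotated chr3:139005806-139357223. The span in use in these cells was not measured. With exonic length in place of span the correlation was -0.09, against -0.36 over all nuclear genes. With the span of the principal transcript, an alternative chosen after seeing the data, it was -0.60, against -0.67 over the 12899 tested genes that have one.

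**Figure D3:**
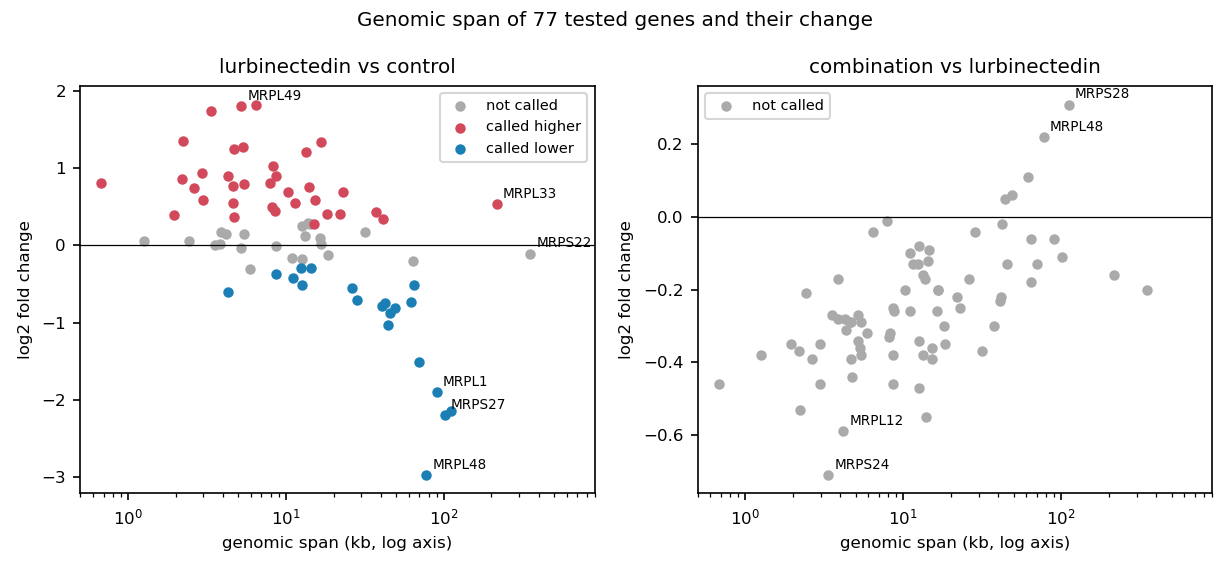
Genomic span (kb, log axis) and log2 fold change of the 77 tested genes, for lurbinectedin against control on the left and for the combination against lurbinectedin on the right; red and blue points are genes called higher and lower, and grey points were not called. On the left the called rises lie mostly at short spans and MRPL48, MRPS27 and MRPL1 at the bottom right; on the right nearly all points lie below 0 and the shorter genes lie lowest.

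Many of these genes start beside another gene. Of the 77, 29 (37.7%) had a tested gene on the opposite strand whose start lay within 1000 bp, against 23.9% of all 16683 genes. In 11 of these 29 pairs (37.9%) member and partner both rose with lurbinectedin, against 18.4% of all genes that have such a partner. Both fell in 2 pairs (6.9%, against 13.8%), and in 1 (3.45%, against 8.54%) the member rose and its partner fell. In 7 pairs (24.1%, against 10.8%) the partner alone rose, and in 2 (6.9%, against 9.8%) the partner alone fell. In 2 (6.9%, against 10.9%) the member alone rose, and in 4 (13.8%, against 9.52%) neither was called. The pair of opposite calls was MRPL51 (0.39) with NCAPD2 (-0.59), and the pairs that fell were MRPS27 with PTCD2 (-2.20 and -0.96) and MRPL13 with MTBP (-0.51 and -1.19). In some pairs the exons of member and partner overlap on opposite strands. The overlap is 383 bases for MRPL51 and NCAPD2, 190 for MRPS27 and PTCD2, and 149 for MRPL43 and TWNK. Whether reads shared by such pairs bear on their calls was not tested. MRPL46 and MRPS11, 63 bp apart on chromosome 15 and each counted with the other as partner, rose by log2 fold changes of 0.80 (SE 0.178) and 1.21 (SE 0.133), with edgeR adjusted p values of 0.00108 and 1.77e-06. MRPS11, a small-subunit platform protein, stood at 22.2, 21.9 and 22.1 CPM in control and 55.6, 50.8 and 47.3 with lurbinectedin. MRPL46 stood at 2.08, 2.47 and 2.87 CPM in control and 4.36, 4.50 and 4.11 with lurbinectedin, so neither gene's groups overlapped. The rise of MRPL46 was from a low level, with 1149 counts over all 12 libraries. MRPL49 starts 6 bp from FAU, which encodes a cytosolic small-subunit protein fused to a ubiquitin-like one, and FAU rose by 0.96. MRPL36 and NDUFS6, a complex I subunit, rose by 0.58 and 0.59.

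The sequences between and before starts, with or without such a partner, were read from the RefSeq promoter windows (GRCh38.p14), which matched 69 of the 77 genes. Shown are the shared interval of MRPL46 and MRPS11, whose genes rose together, and the 100 bases before MRPL20, MRPL32 and MRPL48, which stand for a gene lower with teriflunomide, a large rise and the largest fall with lurbinectedin. Each is written 5′ to 3′ on the strand of the named gene, with CCGGAAG (ETS factors and GABP) and GGGCGG (SP1), in either orientation, in capitals. Positions are chr15:88467391-88467452 (minus), chr1:1407294-1407393 (minus), chr7:42932276-42932375 (plus) and chr11:73787772-73787871 (plus).
MRPL46 to MRPS11: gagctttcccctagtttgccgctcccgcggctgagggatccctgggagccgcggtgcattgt
MRPL20: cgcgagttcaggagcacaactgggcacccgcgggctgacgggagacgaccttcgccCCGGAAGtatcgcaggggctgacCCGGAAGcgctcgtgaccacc
MRPL32: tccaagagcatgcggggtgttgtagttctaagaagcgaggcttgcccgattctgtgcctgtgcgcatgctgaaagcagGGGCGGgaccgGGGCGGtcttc
MRPL48: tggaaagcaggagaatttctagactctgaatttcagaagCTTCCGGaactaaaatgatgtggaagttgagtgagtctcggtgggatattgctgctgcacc

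Letters were searched on both strands of the whole windows, and matches may overlap each other. CCGGAAG was in the windows of 29 of the 69 genes (42%), against 18.9% of the windows of all tested genes. The letters AAGATGGCG, known for YY1, were in 13 (18.8%), against 3.87%. For GGGCGG the shares were 60.9% against 69.6%, and for GCGCATGCG, an NRF1 motif, 4.35% against 3.71%. The E-box CACGTG was in 8.7% against 10%, and the TATA letters TATAAA in 2.9% against 5.71%. The cyclic AMP response letters TGACGTCA were in 0 windows of the 69, against 3.34%. The median log2 fold change with lurbinectedin was 0.12 with CCGGAAG in the window and 0.35 without it. For the other letters found in over 10 windows it went the other way, 0.44 and 0.17 for AAGATGGCG and 0.36 and 0.15 for GGGCGG.

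Teriflunomide alone left most of these genes uncalled. Of the 77, 2 were lower and 0 higher at an edgeR adjusted p under 0.05, where 2.13% and 3.88% of all genes were, so the count of members is at the background. At an unadjusted p under 0.05 there were 19 genes, against 24.8% of all genes, and DESeq2 called 8 lower (4.98% of all genes). The log2 fold change was below 0 in 56 of 77, against 46.2% of all genes, and the median was -0.15, against 0.03. All 3 teriflunomide libraries lay below all 3 controls in 32 genes and above in 6, where 16.7% and 20.1% of all genes did. By library the medians were -0.04, -0.14 and -0.31, the last being replicate 3, and the all-gene medians of these libraries were 0.02 to 0.04.

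MRPL3, a large-subunit protein near the site of peptide bond formation, was at 139.9, 136.6 and 133.5 CPM in control and 107.7, 101.3 and 112.0 with teriflunomide. The groups did not overlap, and replicate 3 was the highest of the treated libraries. The log2 fold change was -0.35 (SE 0.0894, edgeR adjusted p = 0.0354). MRPL20, a large-subunit protein that binds ribosomal RNA, was at 30.4, 30.2 and 31.7 CPM in control and 23.2, 23.4 and 20.9 with teriflunomide, again without overlap. Its log2 fold change was -0.45 (SE 0.118, edgeR adjusted p = 0.0404), and its divergent transcript MRPL20-DT and antisense transcript MRPL20-AS1 had values of -0.84 (edgeR adjusted p = 0.0851) and -0.49 (edgeR adjusted p = 0.122). MRPL20 shares 138 exon bases with that antisense gene.

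These calls were not stable. No gene was called lower without any 1 of the 3 control libraries, teriflunomide replicate 2, or any 1 of the 3 lurbinectedin libraries, and 5 were called without teriflunomide replicate 3 (3.6% of all genes). MRPS34, a mitochondria-specific small-subunit protein whose gene overlaps EME2 in 31.2% of its exon bases, came next, with 62.3, 57.9 and 60.4 CPM in control, 48.0, 45.1 and 42.3 with teriflunomide and an estimated change of -0.42 on the log2 scale (SE 0.117, edgeR adjusted p = 0.0514).

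Replicate 3 differed gene by gene. MRPL12, which resembles the bacterial stalk protein L7/L12, was at 12.5 and 11.5 CPM in the first 2 teriflunomide libraries and at 2.28 in replicate 3, against 15.2, 15.6 and 16.8 in control. MRPS12 was at 17.5 and 15.8 CPM and then 4.804. MRPL32 went the other way, at 39.4 and 35.1 CPM and then 58.8. Those 3 genes were chosen after their values were seen. The Spearman correlation of span with log2 fold change under teriflunomide was 0.52 over the 77 genes, against 0.22 over all nuclear genes. Replicate 3 enters both values, and no value without it is given here.

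With teriflunomide added to lurbinectedin, nearly all these genes had slightly lower values. The combination was below lurbinectedin in 72 of 77, against 46.7% of all genes, with a median log2 fold change of -0.26 against 0.03. In 52 genes every combination library lay below every lurbinectedin library, and in 1 every one lay above, where 12.6% and 11.1% of all genes did. No gene passed the edgeR adjusted p of 0.05, nor did any of the 16683 (0%). The smallest adjusted p among the members was 0.151, 32 had an unadjusted p under 0.05 (15.6% of all genes did), and DESeq2 called 6 lower (0.977% of all genes). Library medians against the control mean were -0.16, -0.08 and -0.14 with the combination, all below the 0.25, 0.13 and 0.19 with lurbinectedin.

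The count of calls turned on the libraries that stood apart. Without teriflunomide replicate 3, which is in neither group, 30 genes were called lower, against 5.8% of the 17072 genes that then passed the filter. Without combination replicate 2 it was 1 gene, against 0.276%. With both left out, an alternative chosen after seeing the data, it was 45 genes, against 10.1% of all genes, and 29 of the 30 were among them.

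The 3 genes with the smallest p were MRPL36, MRPS21 and MRPL21, proteins of bacterial descent. MRPL36 (ENSG00000171421.13, chr5:1798385-1801366, minus strand) was at 34.9, 28.5 and 31.9 CPM with lurbinectedin and 22.2, 25.7 and 21.5 with the combination, a log2 difference of -0.46 (SE 0.118). MRPS21 (ENSG00000266472.6, chr1:150293861-150308979, plus strand) was at 99.2, 96.1 and 94.2 CPM and then 71.1, 81.3 and 73.0, a log2 difference of -0.36 (SE 0.0937). MRPL21 (ENSG00000197345.13, chr11:68891276-68903835, minus strand) was at 63.9, 57.4 and 57.0 CPM and then 42.8, 41.6 and 44.0, a log2 difference of -0.47 (SE 0.124). In all 3 the groups did not overlap, and each had an edgeR adjusted p of 0.151. Without teriflunomide replicate 3 these became 0.0119, 0.00989 and 0.0038 in the same order, and without combination replicate 2 they became 0.0503, 0.0502 and 0.124.

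**Figure D4:**
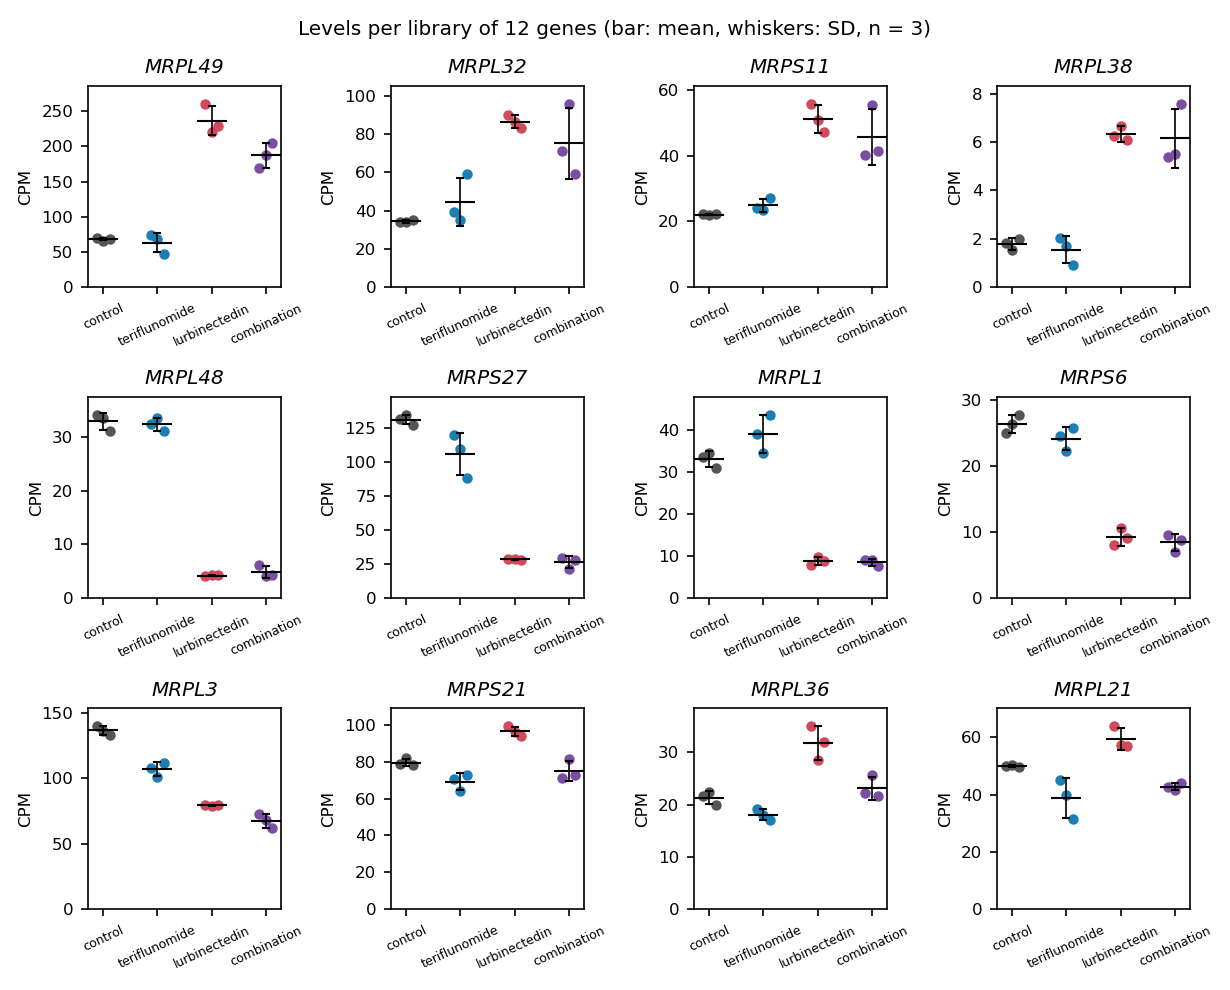
CPM of 12 genes in each library (points), with the group mean (bar) and SD (whiskers, n = 3); every axis starts at 0. The top row holds genes that rose with lurbinectedin and the middle row genes that fell; in the bottom row MRPL3 was lower in each treated group than in control, and in MRPS21, MRPL36 and MRPL21 every combination library lay below every lurbinectedin library.

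The lower values were found in both subunits and at all spans. Of 50 large-subunit genes 47 were below lurbinectedin (median log2 difference -0.27) and of 26 small-subunit genes 24 were (median -0.25). By span the median difference was -0.35 for the shortest genes, -0.26 for the middle group and -0.16 for the longest, where all genes of those spans had medians of -0.08, -0.09 and 0.09. Of the 5 genes with values above 0, MRPS28 (0.31) and MRPL48 (0.22) were among those with the largest falls with lurbinectedin. Both comparisons use the same lurbinectedin libraries, where MRPS28 had 47, 59 and 61 counts, so the values are not independent.

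Set against control, the combination left 19 genes higher and 28 lower, where 34.1% and 34.4% of all genes were. The median log2 fold change was -0.13, against 0.04 over all genes. With library size as the only scaling, which moved the all-gene median to -0.13, 10 rose and 33 fell, where 25.7% and 36.9% of all genes did. This comparison and that of lurbinectedin share their control libraries. The largest values were MRPL48 at -2.75, MRPS27 at -2.30 and MRPL1 at -1.95, and at the other end MRPL38 at 1.79, MRPL49 at 1.47 and MRPL32 at 1.13. MRPS24 was called higher (log2 fold change 1.02, SE 0.347, edgeR adjusted p = 0.0175), but not without control replicate 1 or without combination replicate 1, where it was 0.73 and 0.77. MRPS33, a mitochondria-specific small-subunit protein, was lower at -0.53 (SE 0.111, edgeR adjusted p = 0.000775), while its value with lurbinectedin alone was -0.18.

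Against teriflunomide alone, the combination had 27 genes higher and 26 lower, where 35.2% and 35.8% of all genes were. The median was 0.10 (0.00 without teriflunomide replicate 3), and the lowest and highest values were again those of MRPL48 (-2.73) and MRPL38 (1.98). MRPS12 had 1.60 here, over the low teriflunomide library named above.

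Whether teriflunomide acted differently with and without lurbinectedin was tested as an interaction. No gene of the 77 passed, where 0.258% of all genes did, 5 had an unadjusted p under 0.05 (10.3% of all genes did) and the median log2 difference was -0.10. The smallest p values were those of MRPL39, a mitochondria-specific large-subunit protein, at -0.49 (SE 0.159, edgeR adjusted p = 0.293), MRPS33 at -0.46 (SE 0.156, edgeR adjusted p = 0.323) and MRPL23, which lines the exit of the peptide tunnel, at -0.52 (SE 0.218, edgeR adjusted p = 0.427). MRPL39 stood at 41.8, 41.4 and 40.1 CPM in control and at 46.7, 44.3 and 57.9 under teriflunomide. Its lurbinectedin libraries had 56.9, 52.5 and 53.7 CPM and its combination libraries 45.3, 45.1 and 49.5. Teriflunomide libraries were thus above control and combination libraries below lurbinectedin, without overlap in either comparison. Without teriflunomide replicate 3, 3 genes were called lower (2.16% of all genes), and with both outlying libraries left out 9 were, against 4.97% of all genes.

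**Figure D5:**
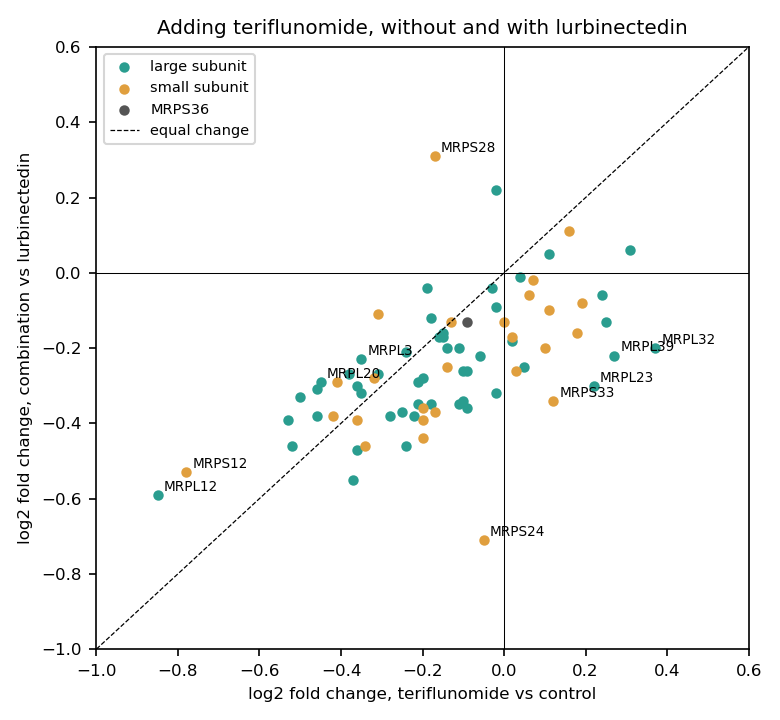
Log2 fold change of each of the 77 genes on adding teriflunomide, without lurbinectedin (horizontal) and with it (vertical), coloured by subunit; the dashed line marks equal change. Most points lie below 0 on both axes, and the control and lurbinectedin libraries are each used on 1 axis only; MRPL32, MRPL39, MRPL23 and MRPS33 lie to the right of 0 and below it.

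The other genes of mitochondrial translation were read in the same fits. Of the genes for the 5 mitochondrial ribosomal proteins with other names, CHCHD1, AURKAIP1 and GADD45GIP1 rose with lurbinectedin, by 0.43, 0.54 and 0.58. PTCD3, a pentatricopeptide repeat protein like MRPS27, fell from 137.9, 137.6 and 138.3 CPM to 76.0, 80.0 and 79.4 (log2 fold change -0.81, edgeR adjusted p = 2.01e-06), and DAP3 had a value of 0.08. All 5 had values below 0 for the combination against lurbinectedin, with a median of -0.24 and none called.

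Of 26 genes for ribosome assembly and ribosomal RNA modification, 14 rose and 5 fell with lurbinectedin (53.8% and 19.2%, against 36% and 35.7% of all genes), with a median of 0.40. The 14 include MRM2, at a mean of 0.215 CPM in control, 0.212 with teriflunomide and 1.195 with lurbinectedin. MRM2 passed the filter only through the groups where it was higher, so its direction was set by the filter and is not evidence. METTL15, which methylates the small ribosomal RNA, fell from 19.9, 22.5 and 18.7 CPM to 0.921, 0.860 and 0.981 (log2 fold change -4.46, SE 0.23, edgeR adjusted p = 1.1e-09), a steeper fall than any of the 77. MPV17L2, an inner-membrane protein needed to assemble the ribosome, rose from 10.3, 10.2 and 10.4 CPM to 28.9, 26.2 and 28.3 (log2 fold change 1.43). With the combination against lurbinectedin 23 of the 26 had values below 0, with a median of -0.22 and none called.

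Of 17 translation factors 5 rose and 7 fell with lurbinectedin (29.4% and 41.2%, against 36% and 35.7% of all genes). MTIF2, the initiation factor, fell by 1.54 on the log2 scale. LRPPRC, which stabilises mitochondrial messenger RNA, fell by 0.81. It was also 1 of the 2 factors called lower with teriflunomide (11.8%, against 2.13% of all genes). There it went from 601.6, 622.7 and 585.5 CPM to 457.2, 455.0 and 506.1 (log2 fold change -0.35, edgeR adjusted p = 0.0334).

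The RNA partners of these proteins went up. The small ribosomal RNA MT-RNR1 stood at 1347, 1369 and 1532 CPM in control and 7601, 6702 and 6046 with lurbinectedin (log2 fold change 2.26, edgeR adjusted p = 1.99e-06), and the large MT-RNR2 had a log2 fold change of 1.90 (edgeR adjusted p = 0.000265). Libraries were made from polyadenylated RNA, and the polyadenylation of these RNAs was not measured. Of the transcripts for the 13 proteins encoded by mitochondrial DNA, 7 rose with lurbinectedin (53.8%, against 36% of all genes).

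Cytosolic ribosomal protein genes gave a different count with lurbinectedin. Of 82 tested, 79 rose and 0 fell (96.3% and 0%, against 36% and 35.7% of all genes), with a median log2 fold change of 0.73. The 77 mitochondrial ones had 35 and 20 and a median of 0.17. With the combination against lurbinectedin all 82 had values below 0, against 46.7% of all genes, with a median of -0.39. At an unadjusted p under 0.05 there were 62, where 15.6% of all genes were, and none was called.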

How the data were processed

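The deposited values are raw read counts per gene, 1 table per library, made by the authors with fastp 0.23.2, STAR 2.7.9 and featureCounts on hg38, per the submitters' processing notes. Libraries came from the KAPA mRNA HyperPrep kit, per the labels' protocols. The use of strand and the treatment of multi-mapping reads are not given in the sources used here. Symbols were matched for 60507 of 60649 identifiers (99.8%), and all 37318 identifiers with the same version in GENCODE 29 had the same position there. All 12 libraries were fitted with edgeR 4.0.16 in R 4.3.3 (filterByExpr, TMM scaling, robust quasi-likelihood test; biological coefficient of variation 14.5%), and p-values were Benjamini-Hochberg adjusted over the 16683 genes tested, with 0.05 as the threshold. The comparisons of 2 groups and the interaction, 6 contrasts in all, were taken from that fit. CPM values use TMM-scaled library sizes, so fold changes are relative to most genes. Scripts were tested on simulated data. Full values are given for members called with the 5 largest rises and falls without overlap, for the 3 smallest p values where fewer than 3 were called, for the S18 copies, for the 3 highest levels per length and for the gene that failed the filter. Members, lists and rules were chosen with earlier results of these data known. Alternatives were DESeq2 1.42.0, its size factors, library size alone, no filter, a filter at 1 CPM in 3 libraries, a replicate block, fits of only the groups compared, a threshold of 0.01, leaving out each library, and leaving out both outlying libraries.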

Additional observations from a re-analysis of the deposited data

How the results depend on the processing

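The members with the largest changes or the smallest p in each comparison kept the sign of their log2 fold change under every alternative run, whereas MRPS18A with lurbinectedin, at 0.02, changed sign in 7 of 22. The median over the members changed sign only with library size as the only scaling, for lurbinectedin against control and for the interaction. It was 0.00 for the combination against teriflunomide under that scaling and without teriflunomide replicate 3. With teriflunomide against control the count of members called lower was 2, and became 0 with library size as the only scaling, 0 with the replicate block, 0 in a fit of only these groups, 0 at a threshold of 0.01, 8 without an expression filter, 8 with DESeq2 and 8 with both outlying libraries left out, when 1 was also called higher. For the combination against lurbinectedin the count of members called lower was 0, and became 2 without a filter, 3 in a fit of only these groups, 6 with DESeq2 and 45 with both outlying libraries left out; the interaction then had 9 called lower and a median of -0.18.

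Library size as the only scaling gave 20 members higher and a median of -0.06 with lurbinectedin against control, 10 higher and a median of -0.31 with the combination against control, a median of -0.20 for the combination against lurbinectedin and 0.04 for the interaction. The median for the combination against control was -0.18 without a filter and -0.08 with a filter at 1 CPM in 3 libraries. The summed shares of nuclear-gene counts were 0.458%, 0.434%, 0.469% and 0.417%.

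Leaving out 1 library at a time gave 0 to 5 members lower with teriflunomide, 0 to 30 lower for the combination against lurbinectedin and 0 to 3 lower for the interaction; with lurbinectedin it gave 27 to 38 higher and 18 to 22 lower. Same-numbered libraries did not deviate together (correlations of -0.402 to 0.144). With 3 libraries a group and the outlying libraries among them, this cannot exclude that the numbers pair them. The replicate block changed no count of calls by over 1.5 times other than the teriflunomide one above. With 3 libraries a group, small changes such as those of teriflunomide lie near the limit of the test.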
